A study of Homo sapiens with 4 samples.

Results

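The mitochondrial ribosomal protein genes were taken as every gene symbol in the expression table that begins with MRPL (proteins named for the large subunit) or MRPS (small subunit) followed by a number, with an optional letter A to C. This naming rule found 76 members among the table's 23610 rows, and 23577 rows remained as usable genes after rows with date numbers or error cells were set aside. The table holds 4 human leiomyosarcoma cell lines, RKN, SKLMS1, SKN and SKUT1, a cancer with smooth muscle features. All were untreated and grown in the same serum-containing Dulbecco's medium, and polyadenylated RNA from each line was sequenced once. Each line is represented by 1 library, and the labels do not say whether a line is a single clone, so every difference below compares single libraries, has no replicate error and carries no test. The labels give no treatment, genotype contrast or control line, and each line is therefore set against the mean of the other 3 or against another line.

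The mitoribosome sits in the mitochondrial matrix and translates the few messenger RNAs that mitochondrial DNA encodes, all of them for subunits of the respiratory chain and the ATP synthase. Its RNAs come from mitochondrial DNA, whereas all of its proteins are encoded in the nucleus, made on cytosolic ribosomes and imported. Many members descend from proteins of the bacterial ribosome (these carry systematic names beginning with u or b), while others are mitochondria-specific additions (names beginning with m).

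Levels are given as FPKM, fragments counted per kilobase of transcript and scaled to the mapped reads of the library, which divides by transcript length, so that levels of different genes can be compared within a library. Differences between lines are given on the log2(FPKM + 1) scale, on which 1 is a 2-fold difference; the added 1 understates differences of genes with low levels. A gene was kept for comparisons when it reached 1 FPKM in at least 1 line, which left 13713 genes and 75 of the 76 members. All 75 were above 1 FPKM in all 4 lines, so no kept member owed its place to a single line. From the step between single reads, the libraries were estimated to hold 33600000 reads in RKN, 25300000 in SKN, 30700000 in SKLMS1 and 24400000 in SKUT1. A single read on a 1000-base transcript would then be worth 0.0372 to 0.0512 FPKM, far below the lowest member value of 5.70 FPKM.

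The lines differed in their smooth muscle genes. ACTA2, smooth muscle actin, was listed at 84.7 FPKM in RKN, 1.37 in SKN, 127 in SKLMS1 and 1085 in SKUT1, and TAGLN, an actin-binding smooth muscle protein, at 45.5 in RKN, 5.82 in SKN, 531 in SKLMS1 and 3816 in SKUT1. CALD1, caldesmon, had 37.1 FPKM in RKN, 44.1 in SKN, 131 in SKLMS1 and 1246 in SKUT1. CNN1, calponin, had 86.4 FPKM in SKUT1, against 2.45 in RKN, 0.228 in SKN and 29.6 in SKLMS1. All of these were highest in SKUT1, as were LMOD1, at 14.9 FPKM there and at most 1.25 elsewhere, and MYOCD, the smooth muscle coactivator, at 5.16 FPKM there and at most 0.0303 elsewhere. The late smooth muscle genes MYH11 and DES were at or below 1.15 FPKM in all 4 lines. Of the epithelial markers, KRT8 was at 1.99 FPKM in RKN, 265.0 in SKN, 268 in SKLMS1 and 9.42 in SKUT1, and KRT18 was at 7.84 FPKM in RKN, 283 in SKN, 42.8 in SKLMS1 and 184 in SKUT1. EPCAM and CDH1 stayed at or below 1.80 FPKM. The leukocyte gene PTPRC and the endothelial genes PECAM1 and CDH5 did not exceed 0.213 FPKM. The part of the lines' cell state in the differences below was not tested, and in bulk RNA less transcript per cell and fewer cells with the transcript cannot be told apart.

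All 4 lines expressed the mitoribosomal genes at appreciable levels, several times the level of a typical gene. The median member was at 65.3 FPKM in RKN, against 8.13 FPKM for all kept genes. It was at 48.0 FPKM in SKLMS1, against 8.24 FPKM for all kept genes, and at 50.97 FPKM in SKN, against 8.47 FPKM. In SKUT1 the members had their lowest median, 36.2 FPKM, although the median of all kept genes, 9.30 FPKM, was the highest of the 4 lines. Summed over the 75 members, the genes took 1.21% of all FPKM in RKN, 0.879% in SKN, 1.04% in SKLMS1 and 0.565% in SKUT1. The summed FPKM itself was 5429 in RKN, 4729.9 in SKN, 5159.6 in SKLMS1 and 3502 in SKUT1. The FPKM columns do not have equal totals: they sum to 446954 in RKN, 538300 in SKN, 494047 in SKLMS1 and 619584 in SKUT1, an order opposite to that of the members' shares.

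**Figure D1:**
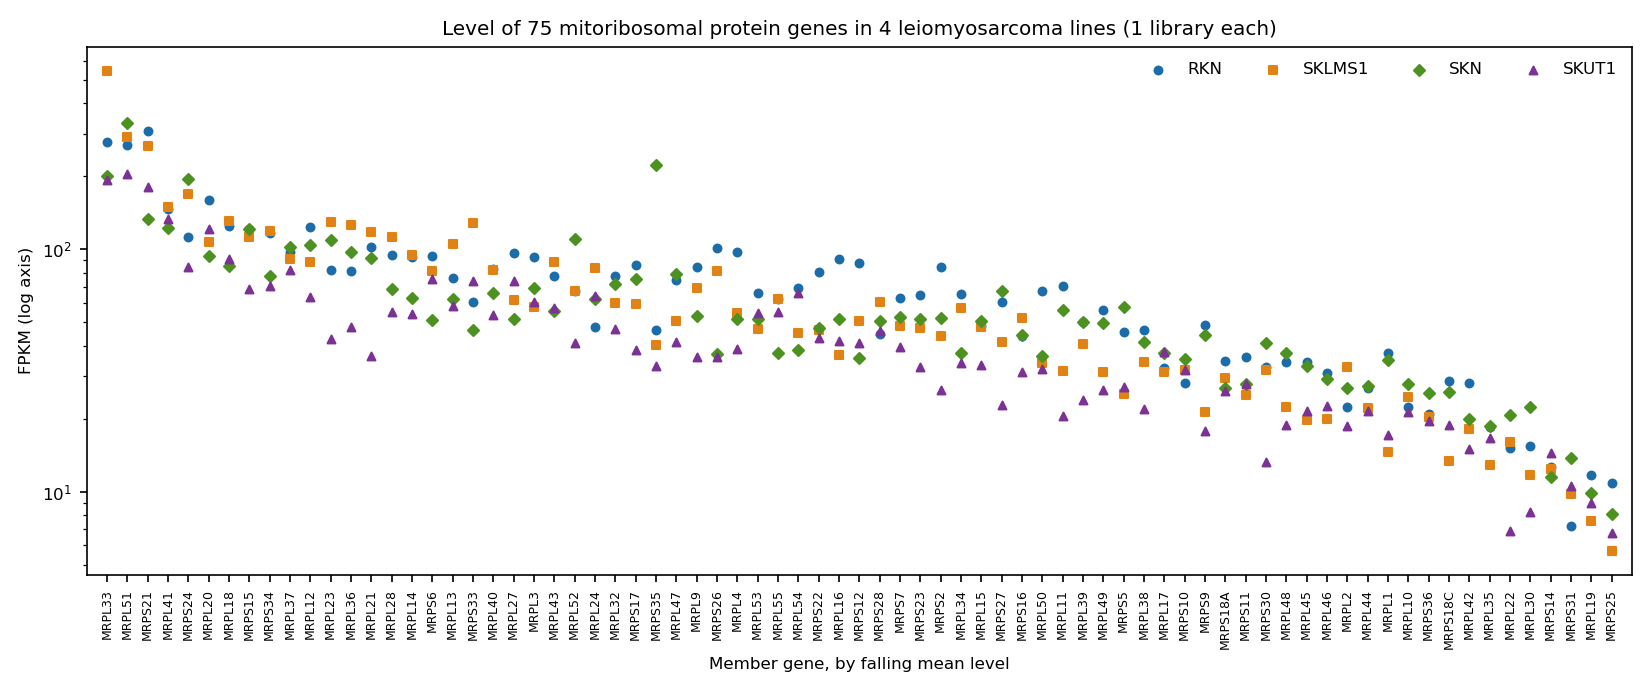
FPKM (log axis) of the 75 kept members, ordered from left to right by falling mean level, with 1 symbol per line and library. Most SKUT1 triangles lie at or near the bottom of their column, the SKN value of MRPS35 lies far above the others of that gene, and the medians over members are 65.3 FPKM in RKN, 50.97 in SKN, 48.0 in SKLMS1 and 36.2 in SKUT1.

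Although the proteins assemble into 1 particle, their transcripts spanned a 38.7-fold range of mean level. The most abundant was MRPL33, the mitochondrial form of the small bacterial protein bL33, with 277 FPKM in RKN, 200.3 in SKN, 545 in SKLMS1 and 194 in SKUT1. MRPL51, a mitochondria-specific protein of the large subunit, had 271 FPKM in RKN, 331 in SKN, 289.7 in SKLMS1 and 205 in SKUT1. MRPS21, the counterpart of bacterial bS21, had 307 FPKM in RKN, 134 in SKN, 266 in SKLMS1 and 181 in SKUT1. These 3 leaders each had their highest value in a different line. MRPL41, a large-subunit protein with no bacterial counterpart, was level by comparison, at 146 FPKM in RKN, 123 in SKN, 149 in SKLMS1 and 133 in SKUT1. MRPS24, the uS3 counterpart near the messenger RNA entry, had 112 FPKM in RKN, 195 in SKN, 169 in SKLMS1 and 84.5 in SKUT1. MRPL20, the bL20 counterpart, had 159 FPKM in RKN, 94.0 in SKN, 107 in SKLMS1 and 122 in SKUT1. MRPL20 was thus highest in RKN and lowest in SKN, while MRPS24 was highest in SKN and lowest in SKUT1. MRPL18, a counterpart of the bacterial protein that binds 5S ribosomal RNA, had 125 FPKM in RKN, 85.7 in SKN, 131 in SKLMS1 and 91.6 in SKUT1. MRPS15, the uS15 counterpart, had 122 FPKM in RKN, 121 in SKN, 112 in SKLMS1 and 68.4 in SKUT1. MRPS34, a mitochondria-specific small-subunit protein, had 117 FPKM in RKN, 77.8 in SKN, 119 in SKLMS1 and 70.5 in SKUT1. The lowest value was in SKN for MRPL18 and in SKUT1 for MRPS15 and MRPS34. MRPL37, a mitochondria-specific large-subunit protein, closed the 10 most abundant with 97.3 FPKM in RKN, 102 in SKN, 90.9 in SKLMS1 and 82.2 in SKUT1.

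At the other end of the scale, 3 of the 5 least abundant members belonged to the small subunit. MRPS25, a mitochondria-specific protein, had 10.9 FPKM in RKN, 8.07 in SKN, 5.70 in SKLMS1 and 6.73 in SKUT1. MRPS31, also mitochondria-specific, had 7.22 FPKM in RKN, 13.8 in SKN, 9.79 in SKLMS1 and 10.5 in SKUT1. MRPS14, the uS14 counterpart, had 12.6 FPKM in RKN, 11.5 in SKN, 12.4 in SKLMS1 and 14.4 in SKUT1, so that it was among the few members with their highest value in SKUT1. The other 2 belonged to the large subunit. MRPL19, the bL19 counterpart, had 11.7 FPKM in RKN, 9.90 in SKN, 7.53 in SKLMS1 and 8.94 in SKUT1. MRPL30, the uL30 counterpart, had 15.4 FPKM in RKN, 22.3 in SKN, 11.8 in SKLMS1 and 8.25 in SKUT1.

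The ranking of members within a line was largely shared between lines. Spearman's rho over the 75 members was 0.90 between SKLMS1 and SKUT1, 0.87 between RKN and SKLMS1, 0.84 between RKN and SKUT1, 0.84 between SKN and SKLMS1, 0.82 between RKN and SKN, and 0.77 between SKN and SKUT1. The 75 points of each pair share the same transcript models and lengths, and the values are descriptions only.

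SKUT1 had the lowest mitoribosomal expression and RKN the highest. In RKN, 59 of 75 members exceeded the mean of the other 3 lines, where 48.3% of all kept genes did, and the median difference was 0.39 against -0.04 for all kept genes. In SKUT1, 62 of 75 members lay below it, where 51% of all kept genes did, with a median difference of -0.51 against -0.03 for all kept genes. The other lines lay between. SKN had a median of 0.15 against -0.05 for all kept genes, and SKLMS1 had -0.04 against -0.06. Relative to the median of all kept genes, the shift of the members was 0.43 in RKN, 0.20 in SKN, 0.02 in SKLMS1 and -0.48 in SKUT1. The value of SKN rested on SKUT1: with SKUT1 left out it was -0.002, and without SKUT1 the value of RKN was 0.25. That of SKLMS1 was 0.17 without RKN and -0.15 without SKUT1, so no direction can be given for this line. The value of SKUT1 stayed between -0.52 and -0.43 whichever other line was left out.

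The members differed between lines by small and similar amounts. The middle 50% of member differences spanned 0.51 in RKN, 0.59 in SKN, 0.62 in SKLMS1 and 0.56 in SKUT1, against 1.20, 0.94, 0.93 and 1.28 for all kept genes in those lines. Few members passed 2-fold even where most lay on the same side. In RKN 6 members were at least 2-fold higher than the mean of the other lines, where 11.6% of all kept genes were, and 0 were 2-fold lower, where 16.6% were. In SKUT1 0 members were 2-fold higher (all kept genes, 17.9%) and 9 were 2-fold lower (13.1%). In SKLMS1 2 members were 2-fold higher (10.7%) and 0 lower (9.83%). In SKN 1 member was 2-fold higher (9.97%) and 0 lower (10.8%). The 9 of 75 in SKUT1 are a share close to the background. On the FPKM scale the low values thus show in the number below 0 and in the median, not in the number past 2-fold. With SKUT1 left out, RKN had 2 members past 2-fold in place of 6, and with SKLMS1 left out SKUT1 had 14 lower in place of 9. SKN had 8 higher without RKN and 2 without SKLMS1, and SKLMS1 had 4 higher without RKN. Lower by 2-fold were 4 members in SKLMS1 without SKUT1 and 1 without RKN, 2 in SKN without SKUT1 and 1 without RKN, and 1 in RKN without SKUT1. The shares of all kept genes were not computed with a line left out, so these changes cannot be read as particular to the members. Since the FPKM columns have unequal sums, the counts also depend on scaling. With each column scaled to the same sum (TPM), 12 members were 2-fold higher in RKN (all kept genes, 20.5%) and 27 were 2-fold lower in SKUT1 (22.9%). As shares of the 75 members, the RKN count was below the background and the SKUT1 count above it. The medians of all kept genes then moved to 0.24 in RKN and -0.31 in SKUT1, and relative to them the members lay at 0.45 in RKN and -0.53 in SKUT1.

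**Figure D2:**
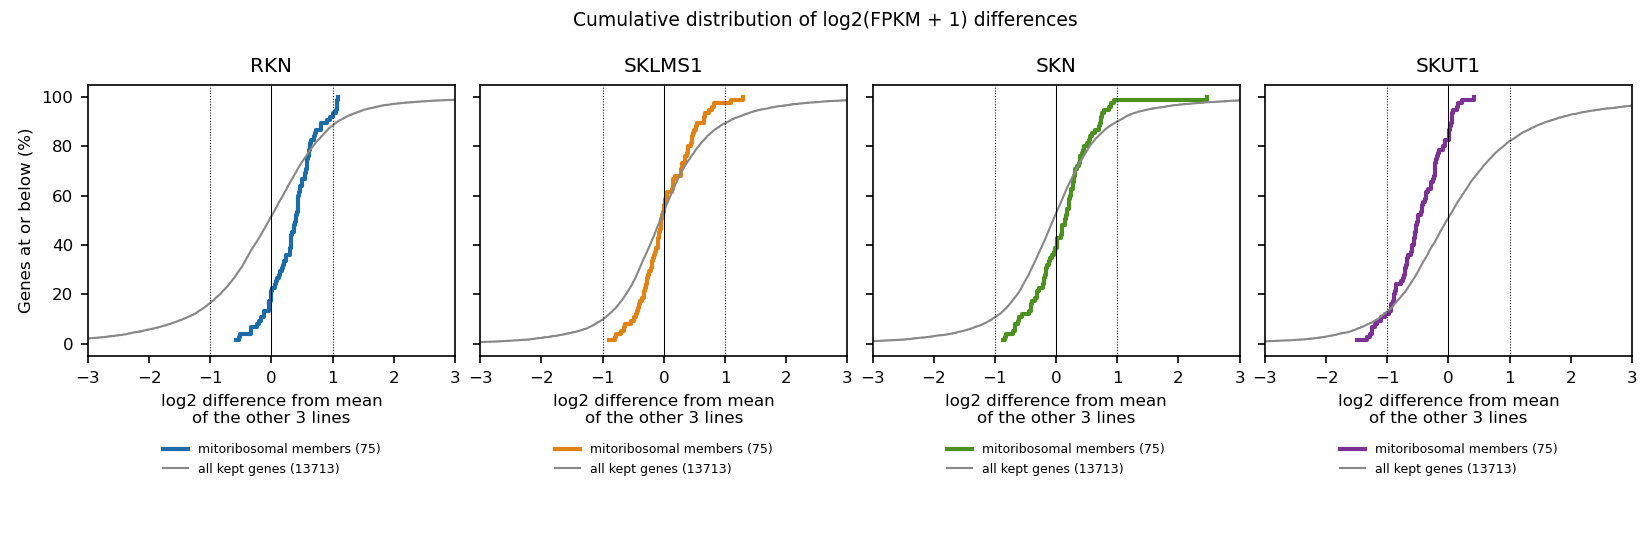
Cumulative share of genes (percent) by the log2(FPKM + 1) difference of a line from the mean of the other 3, for the 75 members (colour) and all 13713 kept genes (grey), with dotted lines at 2-fold and 1 panel per line. The member curve is steeper than the grey one in all 4 panels and lies, over most of its length, to its right in RKN (median 0.39) and to its left in SKUT1 (median -0.51).

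Ordering the lines gene by gene gave a similar picture. RKN held the highest value of 37 members, where it held that of 28.4% of all kept genes, and the lowest of 4 (28.8%). SKUT1 held the highest value of 2 members (30.8%) and the lowest of 46 (27.9%). SKLMS1 held the highest of 17 (19.7%) and the lowest of 13 (21.9%). SKN held the highest of 19 (21.1%) and the lowest of 12 (21.4%). The most frequent order, RKN above SKN above SKLMS1 above SKUT1, was that of 15 members, where 6.45% of all kept genes had it. Neighbours in this order often differed little, and with 1 library each an order of 2 close values has no error to be set against. MRPS14 and MRPL17, both near level, were the 2 members with their highest value in SKUT1; they were picked out after their values were seen.

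Among the pairs of lines, those with SKUT1 had the widest contrasts. Comparing RKN with SKUT1, 18 members were at least 2-fold higher in RKN (17.9% of all kept genes) and 0 lower (22.9%), with 68 of 75 above 0 and a median difference of 0.65. Comparing SKN with SKUT1, 14 were higher in SKN (15.1%) and 0 lower (18.4%), the median being 0.36. Comparing SKLMS1 with SKUT1, 8 were higher in SKLMS1 (15%) and 0 lower (18.2%), with a median of 0.35. These contrasts share the SKUT1 library. The remaining pairs were closer. Comparing RKN with SKLMS1, 5 members were higher in RKN (13.1%) and 1 lower (16.1%), with a median of 0.27. Comparing RKN with SKN, 3 were higher in RKN (13.1%) and 1 lower (15.7%), with a median of 0.18. Comparing SKN with SKLMS1, 4 were higher in SKN (11.3%) and 3 lower (12.3%), the median being 0.14. These counts depend on the scaling as well. Under TPM, 42 members were 2-fold higher in RKN than in SKUT1 (30.5% of all kept genes) and 0 lower (18.5%). Under TPM 22 were higher in SKN than in SKUT1 (20.5%) and 0 lower (17%), and 22 were higher in SKLMS1 than in SKUT1 (22.8%) and 0 lower (15.5%). Between RKN and SKN, 12 were then higher in RKN (20.5%) and 1 lower (14.4%). The members' counts against SKUT1 thus increased by more than the background did.

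The 6 members at least 2-fold higher in RKN have unlike places in the ribosome. MRPS2, the uS2 counterpart of the small subunit, had 84.4 FPKM in RKN, 52.3 in SKN, 43.9 in SKLMS1 and 26.3 in SKUT1, a difference of 1.08 in RKN and of -1.11 in SKUT1. MRPL11, whose bacterial counterpart uL11 sits at the base of the stalk that recruits translation factors, had 70.8 FPKM in RKN, 56.3 in SKN, 31.4 in SKLMS1 and 20.5 in SKUT1, a difference of 1.07 in RKN and of -1.25 in SKUT1. Both members were thus past 2-fold at each end of the order of lines. MRPS26, a mitochondria-specific small-subunit protein, had 101 FPKM in RKN, 37.1 in SKN, 81.7 in SKLMS1 and 35.8 in SKUT1. MRPL16, the uL16 counterpart, had 91.0 FPKM in RKN, 51.5 in SKN, 36.6 in SKLMS1 and 41.7 in SKUT1. MRPS12, the uS12 counterpart at the decoding centre, had 87.9 FPKM in RKN, 35.5 in SKN, 50.7 in SKLMS1 and 41.1 in SKUT1. MRPS26 was high in RKN and SKLMS1 together, whereas MRPL16 and MRPS12 each had 1 high library, RKN. MRPL4, the uL4 counterpart, had 97.3 FPKM in RKN, 51.7 in SKN, 54.3 in SKLMS1 and 38.7 in SKUT1, a difference of 1.01 in RKN, just past 2-fold. MRPL50, a mitochondria-specific large-subunit protein, fell just short of it in RKN with a difference of 0.96. It had 67.1 FPKM in RKN, 36.2 in SKN, 33.9 in SKLMS1 and 32.1 in SKUT1. MRPS9, the uS9 counterpart, was short of it as well, with a difference of 0.90 in RKN. The levels of MRPS9 were 48.9 FPKM in RKN, 44.1 in SKN, 21.3 in SKLMS1 and 17.8 in SKUT1.

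SKLMS1 had its own pair of high members, both small proteins. MRPL33, described above, was at a difference of 1.30 in SKLMS1. MRPS33, a mitochondria-specific small-subunit protein, had 128 FPKM in SKLMS1, against 60.4 in RKN, 46.5 in SKN and 74.3 in SKUT1, a difference of 1.10. In both, SKLMS1 was above every other line, and MRPS33 was not low in SKUT1.

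**Figure D3:**
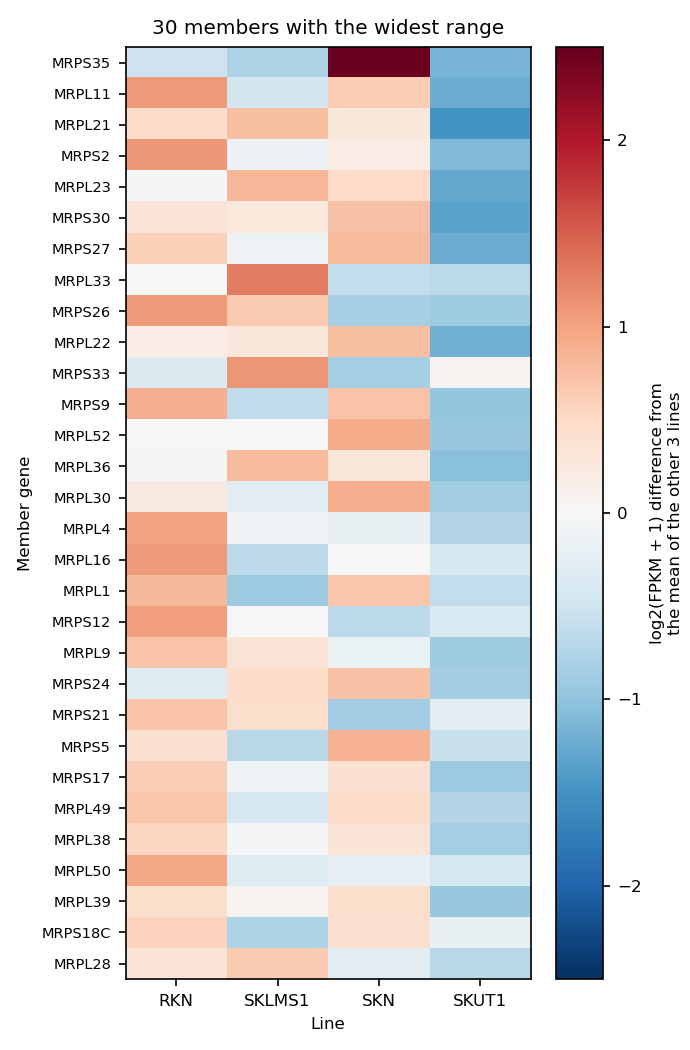
Log2(FPKM + 1) difference of each line from the mean of the other 3 for the 30 members with the widest range, widest at the top (colour scale in log2 units, red higher and blue lower, 1 library per line). SKUT1 is mostly on the negative side, RKN mostly on the positive side, and MRPS35 in SKN has the largest difference drawn, 2.46.

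A member was said to stand apart when its value in a line was at least 2-fold above the highest, or below the lowest, of the other 3. MRPS35 stood apart above in SKN, where 22.5% of all kept genes stood apart above in some line. MRPL21, MRPL22 and MRPS30 stood apart below in SKUT1, where 12.9% of all kept genes stood apart below in some line. As shares of 75 members, both counts were below the background. With the fold lowered to 1.5, 21 members stood apart, of which 13 did so below in SKUT1 (9.3% of all kept genes), 6 above in RKN (10.3%), 2 above in SKLMS1 (6.99%) and 2 above in SKN (7.24%), with MRPL52 and MRPS2 counted in 2 lines each.

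MRPL21, the bL21 counterpart, had 36.2 FPKM in SKUT1, against 102 in RKN, 92.5 in SKN and 118 in SKLMS1. SKUT1 was lower by itself, at a difference of -1.49 from the mean of the others, while the other 3 lines were close together. MRPS30 is a small-subunit gene by name, but its product, mL65, lies in the large subunit. It had 13.3 FPKM in SKUT1, against 32.8 in RKN, 40.9 in SKN and 31.9 in SKLMS1, a difference of -1.34. MRPL22, whose bacterial counterpart uL22 lines the exit tunnel, had 6.89 FPKM in SKUT1, against 15.2 in RKN, 20.8 in SKN and 16.0 in SKLMS1, a difference of -1.20. Of the 6 nearest kept genes, 3 on either side in the RefSeq gene order, 1 was also 2-fold lower in SKUT1 beside each of these members, and 2 were 2-fold higher. The neighbours' median differences in SKUT1 were 0.045 around MRPL21, 0.17 around MRPL22 and 0.20 around MRPS30, so the neighbours did not as a group share the low values. Next to MRPL21, CPT1A, which brings fatty acids into mitochondria, had 22.05 FPKM in SKUT1, against 1.18 in RKN, 6.34 in SKN and 4.04 in SKLMS1, the opposite direction. Beside MRPL22, SGCD had 10.3 FPKM in SKUT1, against at most 0.0136 in the other lines, and GEMIN5 had 5.83 FPKM in SKUT1, against 18.8 in RKN, 12.8 in SKN and 8.32 in SKLMS1. Beside MRPS30, NNT, the mitochondrial transhydrogenase, had 21.2 FPKM in SKUT1, against 15.6 in RKN, 4.82 in SKN and 36.8 in SKLMS1. None of the 75 members had 4 or more of its 6 nearest kept genes 2-fold lower in SKUT1. The same count was not made around other kept genes.

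The other members at least 2-fold lower in SKUT1 included MRPL11 and MRPS2, given above. MRPL23, the uL23 counterpart near the tunnel exit, had 42.6 FPKM in SKUT1, against 82.1 in RKN, 109 in SKN and 129.6 in SKLMS1, a difference of -1.28. MRPS27, a small-subunit protein of the pentatricopeptide repeat family, had 22.7 FPKM in SKUT1, against 60.7 in RKN, 67.2 in SKN and 41.3 in SKLMS1, a difference of -1.24. MRPL36, the bL36 counterpart, had 47.9 FPKM in SKUT1, against 81.0 in RKN, 97.2 in SKN and 126 in SKLMS1, a difference of -1.04. In all of them SKUT1 was the lowest line. The gene order around MRPL23 holds H19, a noncoding RNA, which was listed at 207 FPKM in SKUT1 and at most 0.15 FPKM in the other lines, opposite to MRPL23 itself. IGF2, next to H19, was lowest in SKUT1 like MRPL23, with 1.21 FPKM there, against 1.66 in RKN, 21.1 in SKN and 6.94 in SKLMS1. Among the 6 nearest kept genes of MRPL23, 3 were 2-fold higher in SKUT1 and 1 was 2-fold lower. MRPS35 also counted among the 9 in SKUT1, at -1.16, but this rested on its high value in SKN: without SKN the difference was -0.38. Short of 2-fold, MRPL52, a mitochondria-specific large-subunit protein, had 41.1 FPKM in SKUT1, against 67.6 in RKN, 111 in SKN and 67.6 in SKLMS1. MRPL30, described above, was likewise short of it in SKUT1, at a difference of -0.87. Both spread in 2 directions, with SKN high and SKUT1 low.

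MRPS35, a mitochondria-specific protein of the small subunit, had the widest range of all members. It had 222 FPKM in SKN, against 46.4 in RKN, 40.5 in SKLMS1 and 33.0 in SKUT1, a 6.74-fold ratio of highest to lowest and a difference of 2.46 from the mean of the others. The next widest member, MRPL11, had a ratio of 3.45. MRPS35 shared its high value in SKN with its neighbours in the genome. All 6 of its nearest kept genes, C12orf70, PPFIBP1 and REP15 on one side and KLHL42, PTHLH and CCDC91 on the other, were at least 2-fold higher in SKN, against the background of 9.97%. PPFIBP1, a liprin, had 118 FPKM in SKN, against 7.94 in RKN, 7.98 in SKLMS1 and 29.5 in SKUT1. CCDC91 had 58.0 FPKM in SKN, against 3.62 in RKN, 7.14 in SKLMS1 and 16.7 in SKUT1. Further out, 18 of the 20 nearest and 27 of the 30 nearest kept genes were 2-fold higher in SKN, the 30 with a median difference of 2.13, and 44 of the 60 nearest were. The unbroken run around MRPS35 held 10 genes, ARNTL2 to ERGIC2.

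Read along the gene order, from CMAS to ALG10 there were 38 of 43 neighbours at least 2-fold higher in SKN, with a median difference of 2.05. Beyond ALG10 0 of 7 were, with a median of 0.13, and before CMAS 6 of 10 were, with a median of 1.32. The ends CMAS and ALG10 were picked after the values were seen, so these counts are a description. The stretch holds YARS2, the mitochondrial tyrosyl-tRNA synthetase that charges a tRNA for the mitoribosome, with 118 FPKM in SKN, against 19.8 in RKN, 12.4 in SKLMS1 and 10.8 in SKUT1, a difference of 3.004. BCAT1, a branched-chain aminotransferase, had 126 FPKM in SKN, against 3.14 in RKN, 22.8 in SKLMS1 and 42.1 in SKUT1. These genes lie in 1 stretch and are not separate observations of SKN, and the table holds RNA only. MRPS35 was the only 1 of the 75 members with at least 4 of its 6 nearest kept genes 2-fold higher in SKN. Such counts of neighbours were made for the members only, in every line, so they have no background to be set against. In the other lines 4 or more of 6 neighbours were 2-fold lower in RKN around MRPL23, MRPL44 and MRPS35, 2-fold lower in SKLMS1 around MRPS35, and 2-fold higher in SKUT1 around MRPL13. The last did not extend to the member: MRPL13 had 58.4 FPKM in SKUT1, against 75.8 in RKN, 62.3 in SKN and 105 in SKLMS1. Nor did MRPL23 and MRPL44 follow their neighbours in RKN. Their differences there were -0.04 and 0.19, against neighbour medians of -1.6 and -1.78. Around MRPS35 the counts for RKN and SKLMS1 are set against means that include the high SKN values.

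**Figure D4:**
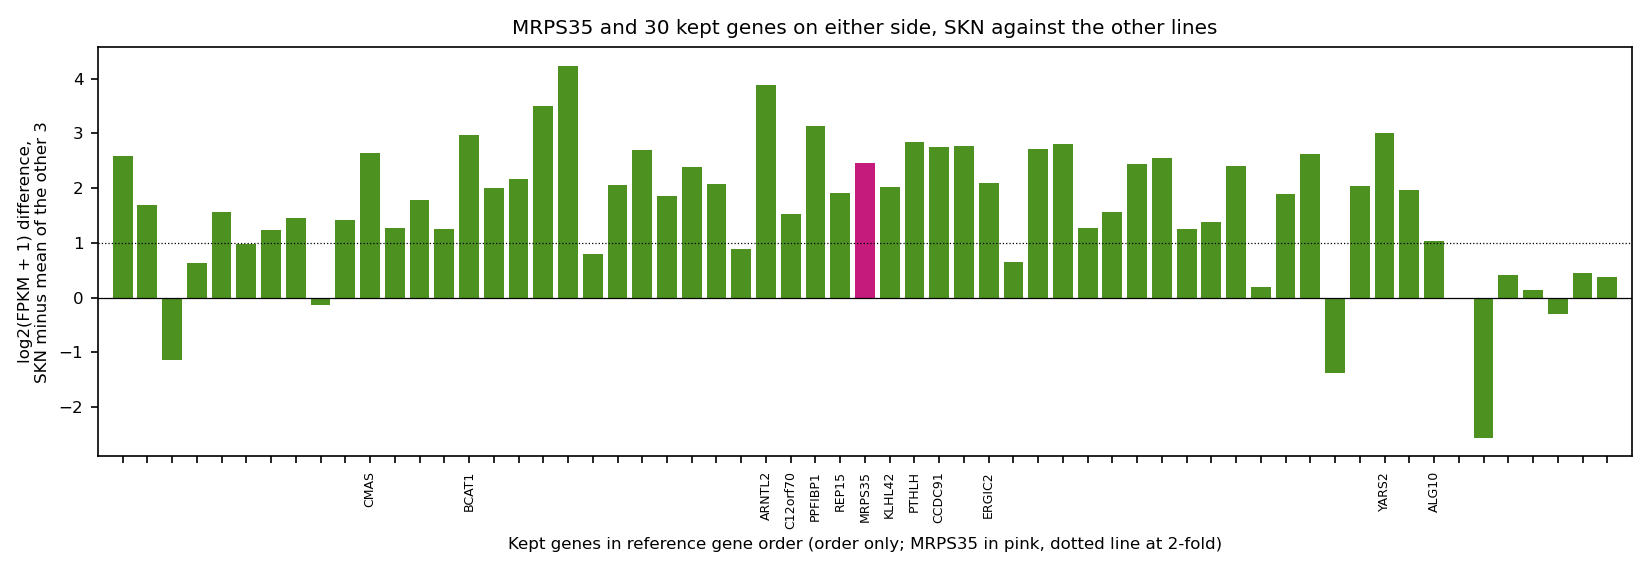
Log2(FPKM + 1) difference of SKN from the mean of the other 3 lines for MRPS35 and the 30 kept genes on either side, by position in the RefSeq gene order (order, not distance), with the genes named in the text labelled. All 6 nearest genes lie past the 2-fold line at 1, 27 of the 30 nearest do, and the 7 genes beyond ALG10 do not.

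Members that barely differed between lines were found too. MRPL17, the bL17 counterpart, had the narrowest range, with 32.4 FPKM in RKN, 37.5 in SKN, 31.2 in SKLMS1 and 37.6 in SKUT1, a range of 0.26. MRPL41, MRPS14 and MRPL37, given above, followed with ranges of 0.28, 0.30 and 0.31. Taken over all members, the median range was 0.87, against 1.31 for all kept genes, and 40.0% of members spanned 2-fold, against 67.2% of all kept genes. The respiratory complex subunits, another set of nuclear genes for mitochondrial proteins, had a median range of 0.84 over 79 genes. The cytosolic ribosomal proteins had 1.06 over 73 genes. The members' spread was thus between those of these sets, at higher levels than the typical kept gene.

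The small and the large subunit followed the lines alike. The 49 large-subunit members had median differences of 0.37 in RKN, 0.16 in SKN, -0.03 in SKLMS1 and -0.51 in SKUT1. The 25 small-subunit members had 0.43 in RKN, 0.10 in SKN, -0.04 in SKLMS1 and -0.45 in SKUT1. The median range was 0.83 for the large and 0.96 for the small subunit. The 46 members with a bacterial counterpart had medians of 0.40 in RKN, 0.13 in SKN, 0.01 in SKLMS1 and -0.55 in SKUT1. The 29 without one had 0.37 in RKN, 0.18 in SKN, -0.05 in SKLMS1 and -0.43 in SKUT1. The gap between these classes was widest in SKUT1, and no class difference was tested. MRPS36, whose product lies outside the ribosome, belongs to neither subunit.

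Some symbols do not match the protein's place. MRPS18A, whose product mL66 lies in the large subunit, had 34.7 FPKM in RKN, 26.9 in SKN, 29.4 in SKLMS1 and 25.9 in SKUT1. MRPS36, first assigned to the ribosome and since placed in the oxoglutarate dehydrogenase complex, had 21.0 FPKM in RKN, 25.4 in SKN, 20.3 in SKLMS1 and 19.5 in SKUT1. Both had narrow ranges, 0.40 for MRPS18A and 0.37 for MRPS36. MRPS18B was listed at 0 in all 4 lines. Of its 20 nearest genes in the reference order 19 were also listed at 0 in all lines, among them TUBB, a tubulin of nearly every cell, and HLA-E, ABCF1, PPP1R10 and FLOT1. Over all usable genes, 20.5% were listed at 0 in all lines. The listing therefore gives no level for MRPS18B, and no fold or difference was computed.

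Several members have copies elsewhere in the genome that could share reads. By name, 41 members have pseudogenes in the reference annotation, 98 in all, and 3 of these are rows of the table. MRPL42P5, MRPL45P2 and MRPS31P5 were at or below 2.33 FPKM in every line, and the antisense gene MRPL23-AS1 did not exceed 0.783 FPKM. The sources used here do not give how reads matching several places were counted, nor whether strand was used.

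The promoters of the members were searched for short motifs of factors known from other studies to act on genes for mitochondrial proteins. RefSeq promoter windows of build GRCh38.p14, from 250 bases before to 50 after the gene start, were matched by symbol for 66 of the 75 kept members and were compared with all 27305 windows and with those of 9828 kept genes. Each motif was searched on both strands, and a match is a run of letters, not a measured binding site. The ETS-type letters CCGGAAGT were found in 11 of 66 member windows (16.7%), against 4.44% of all windows and 8.61% of kept genes. A GC-rich NRF1 motif was found in 7 (10.6%), against 6.28% and 11.5%, and the SP1-type letters GGGGCGGGG in 17 (25.8%), against 16.0% and 28.1%. The shares of the NRF1 and SP1 motifs were thus no higher than in kept genes at large. The YY1-type letters AAGATGGC were found in 19 (28.8%), against 3.03% of all windows and 5.38% of kept genes. Read in the direction of the gene and within the 50 bases after the start, AAGATGGC was in 14 of 66 member windows (21.2%), against 1.39% of all windows and 3.17% of kept genes. These letters contain ATG.

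The stretches below show that run, in capitals, in 7 of the members whose levels are described here, picked after the values were seen. They are the gene's own strand, 5′ to 3′, and were taken from RefSeq at chr5:44808949-44808978 (plus strand) for MRPS30, chr5:154941093-154941122 (plus) for MRPL22, chr5:72320206-72320235 (minus) for MRPS27, chr6:43687764-43687793 (minus) for MRPS18A, chr1:1407260-1407289 (minus) for MRPL20, chr7:43869480-43869509 (minus) for MRPS24 and chr12:6493223-6493252 (minus) for MRPL51.
MRPS30: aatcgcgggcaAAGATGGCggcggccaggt
MRPL22: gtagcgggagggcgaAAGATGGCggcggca
MRPS27: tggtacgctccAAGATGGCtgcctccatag
MRPS18A: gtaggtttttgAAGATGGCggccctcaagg
MRPL20: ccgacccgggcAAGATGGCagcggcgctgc
MRPS24: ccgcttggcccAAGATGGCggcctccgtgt
MRPL51: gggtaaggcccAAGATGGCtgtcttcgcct

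Of these 7, MRPS30, MRPL22, MRPS27, MRPS24 and MRPL51 were highest in SKN and lowest in SKUT1. MRPS18A was highest in RKN and lowest in SKUT1, and MRPL20 was highest in RKN and lowest in SKN. MRPL50, also described above, has the run after the start but is not shown. It was highest in RKN and lowest in SKUT1. Among all 14 members with the run after the start, 8 were highest in RKN, 6 in SKN and 0 in SKLMS1. Lowest in SKUT1 were 10 of the 14, of which 5 were also highest in SKN. Of the 52 members without it, 29 were highest in RKN, 9 in SKN and 12 in SKLMS1. Lowest in SKUT1 were 29 of the 52, of which 7 were also highest in SKN. Over the 14 members with AAGATGGC after the start the median difference was 0.40 in RKN, against 0.43 for the 52 without it. It was -0.05 against -0.06 in SKLMS1, 0.30 against 0.05 in SKN and -0.47 against -0.54 in SKUT1. The members with it had a lower median level, 5.09 against 5.82 on the log2(FPKM + 1) scale. These splits were not tested.

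Many members share a start region with a gene on the opposite strand. Within 1000 bases, 20 of the 66 members (30.3%) had such a partner, against 16.6% of all windows and 23.03% of kept genes, and 15 partners were kept genes of the table. The partner's difference had the member's sign in 12 of 15 pairs in RKN, 11 in SKN, 11 in SKLMS1 and 13 in SKUT1, with MRPL46 and MRPS11, each the other's partner, counted as 2 of the 15. No such count was made for pairs of other genes, so these counts have no background to be set against. They include differences close to 0, such as 0.003 for MRPL51 in RKN and -0.006 for PTCD2 in SKUT1. MRPL30 and its partner MITD1, which acts in the last step of cell division, were alike: MITD1 had 41.1 FPKM in SKN, against 24.7 in RKN, 24.6 in SKLMS1 and 15.3 in SKUT1, so that both were highest in SKN and lowest in SKUT1. MRPS12 and SARS2, the mitochondrial seryl-tRNA synthetase, were both highest in RKN, SARS2 with 14.7 FPKM in RKN, against 8.58 in SKN, 9.81 in SKLMS1 and 5.92 in SKUT1. MRPS27 and PTCD2 were both highest in SKN but differed in SKUT1. PTCD2 had 6.50 FPKM in SKUT1, against 5.12 in RKN, 8.76 in SKN and 6.16 in SKLMS1, with no low value in SKUT1. MRPL27 and EME1 had opposite signs in SKN, SKLMS1 and SKUT1, with differences in SKUT1 of 0.13 for MRPL27 and -1.43 for EME1. The pairs named were chosen after their values were seen.

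Other genes of mitochondrial gene expression were set beside the members, and most lists followed the same direction in RKN and SKUT1. Over the 143 genes of these lists pooled, the median difference was 0.40 in RKN, 0.04 in SKN, -0.15 in SKLMS1 and -0.35 in SKUT1. In RKN 16 of the 143 were 2-fold higher and 1 lower, and in SKUT1 2 were higher and 17 lower. In SKLMS1 3 were higher and 7 lower, and in SKN 8 were higher and 1 lower. As shares of the 143, all of these counts on the FPKM scale were below those of all kept genes given above. Under TPM 45 of the 143 (31.5%) were 2-fold higher in RKN, against 20.5% of all kept genes, and 32 (22.4%) were lower in SKUT1, against 22.9%. Up to 3 genes with the widest range in each list are named below. The 7 mitoribosomal proteins with other symbols had medians of 0.27 in RKN and -0.40 in SKUT1. PTCD3, one of them, had 19.7 FPKM in RKN, 12.1 in SKN, 8.94 in SKLMS1 and 6.81 in SKUT1. MRP63 had 14.1 FPKM in RKN, 9.41 in SKN, 8.29 in SKLMS1 and 11.4 in SKUT1. CHCHD1 had 64.4 FPKM in RKN, 50.8 in SKN, 70.6 in SKLMS1 and 43.3 in SKUT1. PTCD3 and CHCHD1 were lowest in SKUT1, and MRP63 was lowest in SKLMS1.

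The 26 kept assembly factors, which build and modify the ribosomal subunits, had medians of 0.38 in RKN, 0.39 in SKN, -0.26 in SKLMS1 and -0.37 in SKUT1. METTL17, a factor for the small subunit, had 39.9 FPKM in RKN, 69.5 in SKN, 37.7 in SKLMS1 and 12.02 in SKUT1. GTPBP5, a GTPase for the large subunit, had 11.5 FPKM in RKN, 25.4 in SKN, 13.8 in SKLMS1 and 6.23 in SKUT1. Both were highest in SKN and lowest in SKUT1. RPUSD4, a pseudouridine synthase, had 13.8 FPKM in RKN, 11.1 in SKN, 2.84 in SKLMS1 and 8.41 in SKUT1, with its lowest value in SKLMS1. The 22 genes listed as translation factors had medians of 0.39 in RKN, 0.11 in SKN, -0.14 in SKLMS1 and -0.47 in SKUT1. That list is broad and also holds genes with other roles, such as RNA stability, tRNA modification and ion exchange. Among them SLIRP, which stabilises mitochondrial messenger RNAs, had 411 FPKM in RKN, 706 in SKN, 398 in SKLMS1 and 205 in SKUT1. GTPBP3, which modifies mitochondrial tRNAs, had 15.9 FPKM in RKN, 10.1 in SKN, 9.52 in SKLMS1 and 4.14 in SKUT1. SKUT1 had the lowest value of both. LETM1, an inner-membrane protein of ion exchange, had 23.6 FPKM in RKN, 9.15 in SKN, 6.06 in SKLMS1 and 10.1 in SKUT1, lowest in SKLMS1. The fourth widest, MTIF3, an initiation factor, was the 1 gene of this list 2-fold higher in SKUT1. It had 40.7 FPKM in SKUT1, against 12.1 in RKN, 19.1 in SKN and 23.3 in SKLMS1, and was picked after its values were seen. The 19 kept genes listed as aminoacyl-tRNA synthetases had medians of 0.34 in RKN, 0.14 in SKN, -0.03 in SKLMS1 and -0.54 in SKUT1. They include QRSL1, PET112 and GATC, which are amidotransferase subunits. YARS2, given above, had the widest range. MARS2, the methionyl-tRNA synthetase, had 5.71 FPKM in RKN, 4.17 in SKN, 1.41 in SKLMS1 and 1.67 in SKUT1. The lowest line was SKUT1 for YARS2 and SKLMS1 for MARS2.

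The 19 genes of mitochondrial DNA transcription and RNA processing had medians of 0.52 in RKN, 0.07 in SKN, -0.24 in SKLMS1 and -0.36 in SKUT1. TFAM, which packages mitochondrial DNA and starts its transcription, had 21.4 FPKM in RKN, 11.4 in SKN, 10.4 in SKLMS1 and 5.46 in SKUT1. REXO2, an oligoribonuclease, went against the list, with 56.0 FPKM in RKN, 84.6 in SKN, 24.0 in SKLMS1 and 274 in SKUT1. FASTKD3, a mitochondrial RNA-binding protein, had 12.8 FPKM in RKN, 13.5 in SKN, 23.1 in SKLMS1 and 4.88 in SKUT1. TFAM and FASTKD3 were thus lowest in SKUT1 and REXO2 highest there. The 11 nuclear regulators had medians of 0.48 in RKN, -0.03 in SKN, -0.14 in SKLMS1 and -0.28 in SKUT1. MYC, a transcription factor of growth genes that include ribosomal proteins, had 85.0 FPKM in RKN, 54.6 in SKN, 20.5 in SKLMS1 and 16.6 in SKUT1. Its order of lines was the most frequent order among the members, that of 15 of the 75, and also that of 6.45% of all kept genes. Other regulators of the list had that order too. ESRRA, an orphan nuclear receptor, had 19.4 FPKM in RKN, 18.7 in SKN, 6.55 in SKLMS1 and 17.3 in SKUT1. PPARGC1A, the coactivator PGC-1 alpha, was listed at 0 in RKN and at 0.0129 FPKM in SKN, 1.53 in SKLMS1 and 0.0734 in SKUT1. Of the 3, MYC alone was lowest in SKUT1, with ESRRA lowest in SKLMS1 and PPARGC1A above 1 FPKM in SKLMS1 alone. Whether these levels bear on the members was not tested. The 20 import genes had medians of 0.42 in RKN, -0.22 in SKN, -0.05 in SKLMS1 and -0.14 in SKUT1. TOMM40, the import pore, had 104 FPKM in RKN, 36.7 in SKN, 37.5 in SKLMS1 and 32.1 in SKUT1. TOMM34, a cytosolic cofactor of import, had 69.4 FPKM in RKN, 115 in SKN, 43.5 in SKLMS1 and 26.4 in SKUT1. TOMM22, the import receptor, had 136.9 FPKM in RKN, 68.4 in SKN, 86.5 in SKLMS1 and 50.1 in SKUT1. All 3 were lowest in SKUT1, and TOMM34 was highest in SKN. The 14 genes taken as a sign of mitochondrial mass had medians of 0.27 in RKN, -0.07 in SKN, 0.10 in SKLMS1 and -0.32 in SKUT1, with HSPD1, the matrix chaperonin, at 413 FPKM in RKN, 211 in SKN, 177 in SKLMS1 and 104 in SKUT1. Its co-chaperonin HSPE1 had 245 FPKM in RKN, 122 in SKN, 144 in SKLMS1 and 59.3 in SKUT1. SOD2, the matrix superoxide dismutase, had 64.96 FPKM in RKN, 232 in SKN, 51.1 in SKLMS1 and 44.7 in SKUT1. SOD2 was highest in SKN, the chaperonin pair in RKN, and all 3 were lowest in SKUT1. The 6 proteases had medians of 0.47 in RKN, -0.10 in SKN, -0.16 in SKLMS1 and -0.16 in SKUT1, with 0 genes past 2-fold in any line. SPG7 had 32.5 FPKM in RKN, 13.006 in SKN, 21.3 in SKLMS1 and 20.0 in SKUT1. Its partner AFG3L2 had 42.0 FPKM in RKN, 44.0 in SKN, 22.7 in SKLMS1 and 30.5 in SKUT1. CLPX, the unfoldase of the ClpXP protease, had 29.1 FPKM in RKN, 18.5 in SKN, 14.98 in SKLMS1 and 17.8 in SKUT1. None of these 3 was lowest in SKUT1. Of the 13 proteins that the mitoribosome itself makes, encoded in mitochondrial DNA, 0 were found by symbol in the expression table, so no level is given.

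**Figure D5:**
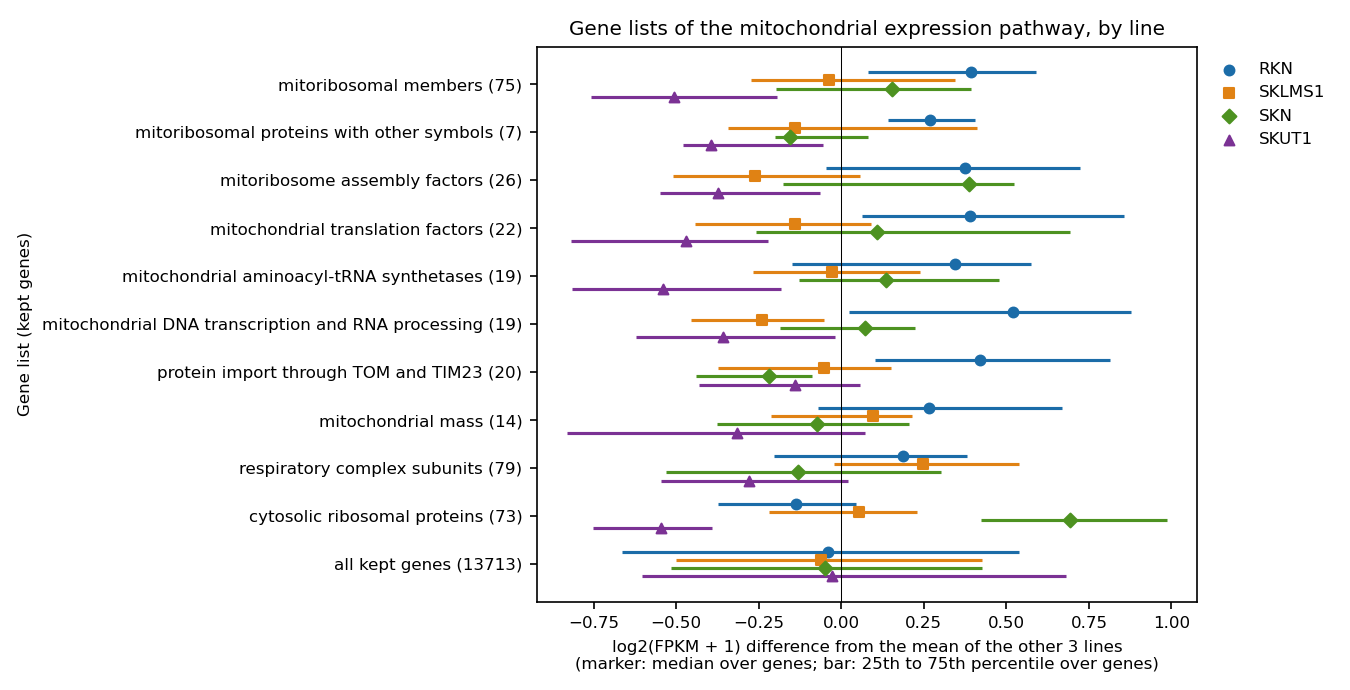
Median log2(FPKM + 1) difference of each line from the mean of the other 3 (marker) with the 25th to 75th percentile over genes (bar), for the members, the related lists, the respiratory subunits, the cytosolic ribosomal proteins and all kept genes; 1 library per line. The members' medians are 0.39 in RKN and -0.51 in SKUT1, while those of the cytosolic ribosomal proteins are -0.14 in RKN and -0.55 in SKUT1.

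The mitochondrial and the cytosolic ribosome differed in which line was highest and were alike in which was lowest. In SKUT1 the members' median difference was -0.51 and that of the 73 cytosolic ribosomal proteins -0.55. In RKN the members' median was 0.39 and the cytosolic proteins' -0.14. In SKN it was 0.15 for the members and 0.69 for the cytosolic proteins. Of the cytosolic proteins, 18 were 2-fold higher in SKN (all kept genes, 9.97%) and 1 was 2-fold lower (10.8%). The members thus had their highest median in RKN and the cytosolic ribosomal proteins in SKN. The members also differed from the 79 respiratory complex subunits, whose products include the partners of what the mitoribosome makes. These had medians of 0.19 in RKN, -0.13 in SKN, 0.25 in SKLMS1 and -0.28 in SKUT1. Members and respiratory subunits were both low in SKUT1, and they went opposite ways in SKN, where the members' value was not kept without SKUT1. Differences between the sets were not tested.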

How the data were processed

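Polyadenylated RNA of 4 leiomyosarcoma cell lines was sequenced with 1 library each. The authors deposited 1 table of FPKM per gene and line. Reads were aligned with STAR and quantified with Cufflinks on build hg19, per the submitters' processing notes; the gene annotation, strand setting and any filter were not given in the sources used here, and reads shared by gene copies can be split or lost. Rows with date numbers (28) or error cells (5) were left out, and 0 per-sample columns went unused. Genes with at least 1 FPKM in at least 1 line were kept, values were put on the log2(FPKM + 1) scale, and each line was compared with the mean of the other 3. With 1 library per line no test was made: sizes, counts and the shares over all kept genes are given. Depth was estimated from single-transcript genes, of which 70 to 76 per line (of 1110 to 1232) shared the most frequent single-read step, with an assumed fragment length of 200 bases. Intervals are not given. Gene neighbours and promoters came from RefSeq tables of GRCh38.p14, used for gene order only where the table's genes are concerned; 97.7% of kept symbols were placed. Values in every line are given for the 10 highest, 5 lowest, 15 widest and 4 narrowest members, members standing apart or listed at 0, and those with a misplaced name, and for up to 3 widest genes of a related list; other names were chosen after their values were seen. The members and lists were chosen with earlier results of these data known. Alternatives were other pseudocounts, filters, scalings, the median of the other lines, other folds and each line left out. The code (Python 3.11.15, pandas 2.3.3, numpy 2.4.6, matplotlib 3.10.9) was tested on simulated data.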

Additional observations from a re-analysis of the deposited data

How the results depend on the processing

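With 1 library per line there is no replicate error, so a difference between lines cannot be set against the spread within a line; at the estimated depths the members lie well above single-read levels. Of 318 alternative values for 43 results, 268 stayed within 0.1 (log2) or 1.5 times of the reported value, 48 moved further and 2 reversed. A change of sign was counted as reversed only where the reported value was more than 0.1 from 0. For example, the SKLMS1 median relative to all kept genes, 0.02, was -0.01 with a pseudocount of 0.1 and -0.03 with no filter. Both count among the 268. The SKLMS1 median difference of -0.04 was 0.062 under TPM and counts among the 48. None of the moves came from median-of-ratios scaling (factors 1.0236 in RKN, 1.0107 in SKN, 1.0052 in SKLMS1 and 1.0047 in SKUT1), from no filter or from a minimum of 5 FPKM. No paired analysis was possible because each line has 1 library and the lines share no replicate numbers that pair them.

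With values rescaled to TPM, which divides by the unequal column sums, members 2-fold higher in RKN were 12 (20.5% of all kept genes) and lower in SKUT1 27 (22.9%), and median differences were 0.69 in RKN, 0.062 in SKLMS1 and -0.84 in SKUT1. The medians of all kept genes moved too, to 0.24 in RKN and -0.31 in SKUT1, and the members' medians relative to them were 0.45 in RKN and -0.53 in SKUT1. Under TPM 42 members were 2-fold apart between RKN and SKUT1, all higher in RKN (30.5% of all kept genes), 22 between SKN and SKUT1, all higher in SKN (20.5%), 22 between SKLMS1 and SKUT1, all higher in SKLMS1 (22.8%), and 13 between RKN and SKN, 12 of them higher in RKN (20.5%); 12 members were highest in SKN and 0 in SKUT1. Genes of the related lists past 2-fold under TPM were 45 of 143 higher (31.5%, against 20.5% of all kept genes) and 0 lower in RKN, 4 lower in SKN, and 1 higher and 32 lower (22.4%, against 22.9%) in SKUT1.

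With a pseudocount of 5, members 2-fold higher in RKN were 3, and related genes were 5 higher and 0 lower in RKN, 1 higher and 4 lower in SKLMS1, 0 lower in SKN and 8 lower in SKUT1; a larger pseudocount shrinks differences by construction. With 0.1, related genes were 2 lower in RKN and 4 lower in SKN. Against the median of the other lines, members 2-fold lower in SKLMS1 were 2, the relative median of SKLMS1 was -0.092, and members in SKN were 3 higher and 1 lower. Members standing apart were 21 at 1.5-fold and 1 at 4-fold.

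Leaving out each line in turn, members 2-fold higher were 2 to 7 in RKN, 2 to 4 in SKLMS1 and 1 to 8 in SKN. Members 2-fold lower were 0 to 1 in RKN, 0 to 4 in SKLMS1, 0 to 2 in SKN and 9 to 14 in SKUT1. Median differences ran over 0.24 to 0.47 in RKN, -0.18 to 0.13 in SKLMS1, and -0.022 (reversed, without SKUT1) to 0.26 in SKN. Relative to all kept genes they ran over 0.25 to 0.49 in RKN, -0.15 to 0.17 in SKLMS1, and -0.002 (reversed, without SKUT1) to 0.29 in SKN. The cause of these changes was not tested. Shares of all kept genes past 2-fold were not computed with a line left out, with other pseudocounts or against the median. The counts of genes under those settings therefore have no background beside them.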
